A study of Mus musculus with 16 samples.

Results

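Genes that make, store, take up or break down histamine and serotonin were followed in bone marrow derived mast cells (BMMCs). They were 8 of the 39179 genes in the count files and were chosen by name for their function, with earlier results of these data known. Chosen were Hdc, Tph1 and Ddc for synthesis, Slc18a2 for storage, Slc6a4 and Slc22a3 for uptake, and Hnmt and Maob for degradation. BMMCs were grown for 4 weeks from bone marrow of male C57BL/6 mice aged 8 to 10 weeks, either wild-type (PEP+/+) or lacking PEST-domain-enriched tyrosine phosphatase (PEP-/-), which is encoded by Ptpn22. Per the labels all BMMCs received IgE for 3 h (0.05 µg/ml), and the group treated in no other way is called IgE. The methods of the study state a higher IgE concentration, and which value applies could not be settled. IgE DNP BMMCs were also activated with the antigen dinitrophenol (DNP) at 200 ng/ml for 1 h. IgE DEX BMMCs were given the glucocorticoid dexamethasone (DEX) at 1e-07 M for 8 h, and IgE DNP DEX BMMCs received DEX and DNP. These 4 treatments in 2 genotypes gave 8 groups of 2 samples, 16 samples in all. In each group 1 sample is numbered and the other is lettered, and these are called the numbered and the lettered set.

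Histamine is made from histidine in 1 step by histidine decarboxylase, the product of Hdc. Serotonin is made from tryptophan, first by tryptophan hydroxylase (Tph1 outside the brain) and then by aromatic L-amino acid decarboxylase (Ddc). The vesicular monoamine transporter encoded by Slc18a2 loads both amines into granules, from which mast cells release them when antigen cross-links IgE on their surface. Slc6a4 encodes the plasma membrane serotonin transporter and Slc22a3 the organic cation transporter that carries histamine and serotonin with low affinity. Hnmt encodes histamine N-methyltransferase and Maob monoamine oxidase B, which oxidizes amines and methylated histamine.

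The genes lie on 6 chromosomes of GRCm38. Hdc is at chr2:126593667-126619299, Tph1 at chr7:46644641-46672537, Ddc at chr11:11814101-11898144, Slc22a3 at chr17:12418960-12507704, Hnmt at chr2:24002910-24049394 and Maob at chrX:16709282-16817366, all on the minus strand. Slc18a2 is at chr19:59260896-59296012 and Slc6a4 at chr11:76998603-77032340, on the plus strand. Exons of Slc22a3 share 420 bases with Plg and exons of Slc18a2 share 111 bases with Gm29261, both on the opposite strand. The strand setting of the counting is not given in the sources used here, so reads in these bases cannot be assigned with certainty.

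Promoters of 7 of the 8 genes were found in a RefSeq table for GRCm38.p6. Each was searched on both strands, from 250 bases before to 50 bases after the start site, for a cyclic AMP response element (TGACGTCA), an AP-1 site (TGANTCA), a GC box (GGGCGG), the TATA box (TATAAA), the site of GATA factors (AGATAA), a glucocorticoid receptor half-site (AGAACA) and an E-box (CACGTG). The Hdc promoter is shown because Hdc changed most among the abundant genes of the group, and with both treatments. It covers chr2:126618679-126618928 on the minus strand and lies in the first intron of longer annotated Hdc transcripts. Capitals mark a glucocorticoid receptor half-site on the reverse strand, 137 to 132 bases before the start site, and a GC box 48 to 43 bases before it. The Slc18a2 sequence covers chr19:59260863-59260892 on the plus strand, and its capitals mark a cyclic AMP response element from 4 bases before to 4 bases after the start site.
Hdc: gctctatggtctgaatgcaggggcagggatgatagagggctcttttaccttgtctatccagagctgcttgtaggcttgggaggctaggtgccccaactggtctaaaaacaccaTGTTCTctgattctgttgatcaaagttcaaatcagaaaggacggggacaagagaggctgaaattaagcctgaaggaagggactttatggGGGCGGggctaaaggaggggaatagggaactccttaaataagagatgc
Slc18a2: agcgctgtccgTGACGTCAgagccggactg

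The cyclic AMP response element was in 1.79% of all 32851 promoters of this length, and among the 7 genes searched it was found in Slc18a2. Half-sites for the glucocorticoid receptor were found in the Hdc and Slc18a2 promoters and in 19.0% of all promoters. GC boxes were in 35.7% of all promoters, among them those of Hdc, Slc18a2, Slc6a4 and 1 of the Tph1 promoters. An AP-1 site, in 7.81% of all promoters, and a TATA box, in 13.6%, were found in 1 of the Ddc promoters. A GATA site, in 11.2% of all promoters, was found in Slc18a2, and the E-box letters, in 7.15%, in none of these promoters. These matches describe letters only, and binding was not measured.

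Between 8612531 and 22143526 reads per sample were counted on genes. Ptpn22 was at 130 to 2799 reads in the PEP+/+ samples and at 0 to 55 reads in the PEP-/- samples, and these ranges did not overlap. Mast cell markers summed to between 61906 and 100740 CPM (counts scaled to library size). Marker lists of other cells summed to 20 to 122 CPM for basophils (Mcpt8 and Prss34 among them), 4.3 to 22.1 CPM for eosinophils, 4.81 to 13.3 CPM for macrophages, 1.17 to 17.3 CPM for dendritic cells and at most 2.35 CPM for neutrophils. The list of platelets and megakaryocytes summed to 1940 to 3921 CPM, nearly all of it from Itga2b, an integrin chain that mast cells also carry. Epx of eosinophils, Ppbp of platelets and Cd3e of T cells were at 0 reads, Csf1r of macrophages was at no more than 11 reads per sample, and Ccr3 of eosinophils and Lyz2 of macrophages reached 402 and 200 reads. The numbered and lettered sets stood apart, with 63.6% of the tested genes differing between them. Samples of 1 set deviated together from the means of their groups, so results are given without and with the set as a replicate block. The methods of the study call the replicates biological but do not say whether they came from separate cultures, and p-values measure the spread between these samples.

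Levels were compared as CPM per kilobase of the merged exons of all annotated transcripts of a gene (RPKM). Tph1 had the highest mean level over the 16 samples at 640 RPKM. Slc18a2 followed at 388 RPKM, Maob at 145 RPKM and Hdc at 111 RPKM. Slc6a4 was at 0.966 RPKM, Ddc at 0.393 RPKM, Slc22a3 at 0.31 RPKM and Hnmt at 0.0414 RPKM. The 4 abundant genes thus cover the first step of both syntheses, the vesicular transporter and 1 oxidase, and the second step of serotonin synthesis was among the rare ones. Neighbours in the order by RPKM were not always apart. Tph1 was above Slc18a2 in 13 of 16 samples, Slc18a2 above Maob in 15, Maob above Hdc in 11, Slc6a4 above Ddc in 10, Ddc above Slc22a3 in 12 and Slc22a3 above Hnmt in 11. Hdc was above Slc6a4 in 16 of 16 samples. Of the 8 genes, 7 passed the filter on low counts and were tested, and Hnmt did not pass.

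**Figure D1:**
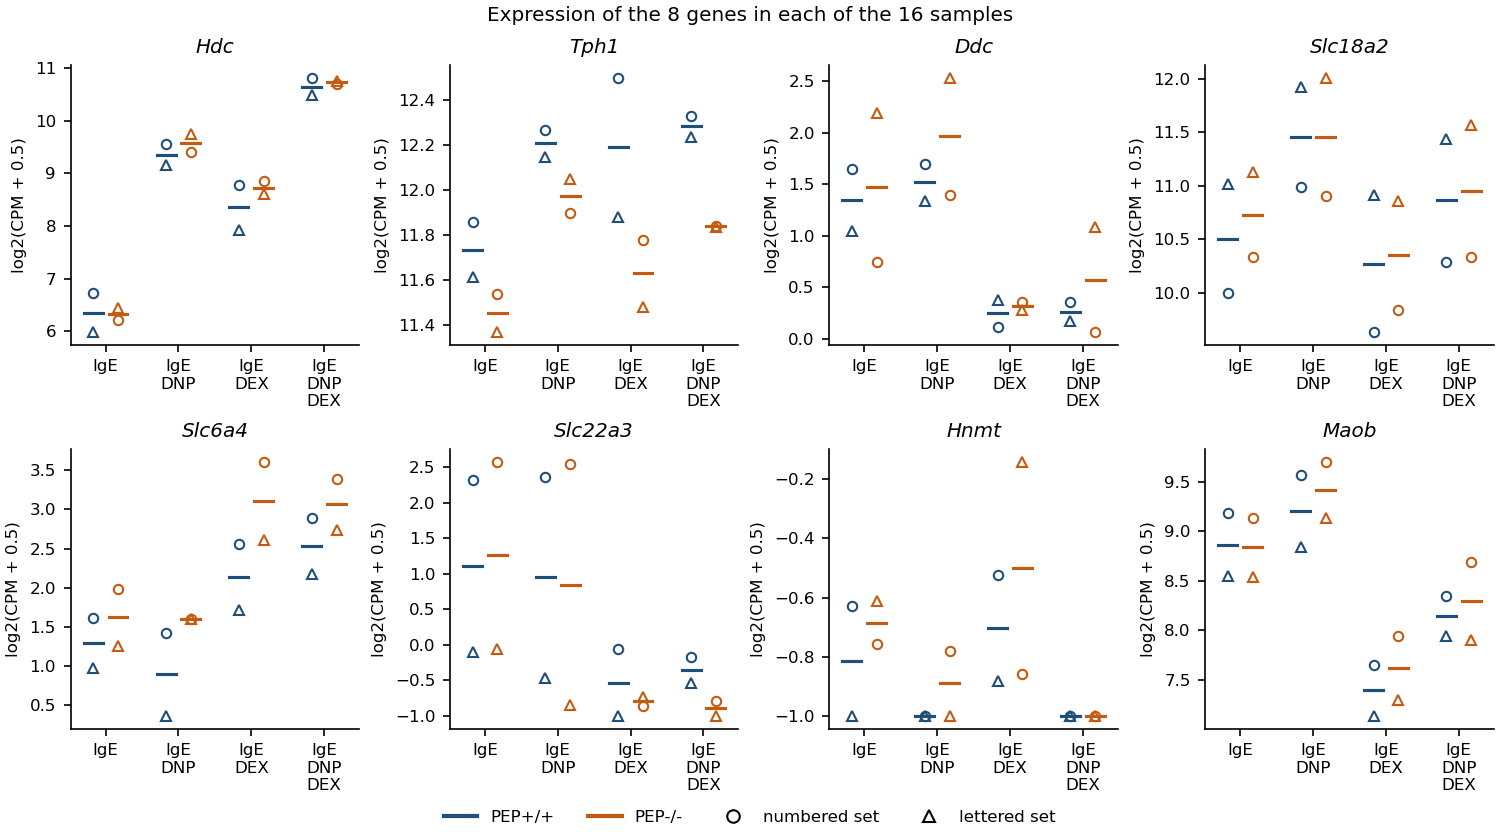
Level of each of the 8 genes in each of the 16 samples, as log2(CPM + 0.5) on the vertical axis, by treatment. Colours mark the genotype, symbols the set and short lines the mean of the 2 samples of a group. Hdc steps up from IgE (62.8 to 105 CPM) over IgE DEX (243 to 463 CPM) and IgE DNP (572 to 863 CPM) to IgE DNP DEX (1429 to 1796 CPM) with no overlap between treatments.

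Hdc rose with DNP, with DEX, and further when both were given. After IgE alone it was at 105 CPM in the numbered and 62.8 CPM in the lettered PEP+/+ sample, and at 73.7 and 86.2 CPM in the PEP-/- samples in the same order. After IgE DNP the PEP+/+ samples were at 748 and 572 CPM and the PEP-/- samples at 676 and 863 CPM. After IgE DEX the values were 438 and 243 CPM in PEP+/+ and 463 and 387 CPM in PEP-/- BMMCs. After IgE DNP DEX they were 1796 and 1429 CPM in PEP+/+ and 1662 and 1729 CPM in PEP-/- BMMCs. Every sample of a treatment was apart from every sample of the other treatments, in the order IgE, IgE DEX, IgE DNP and IgE DNP DEX.

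Averaged over the genotypes, DNP raised Hdc in IgE-sensitized BMMCs by a log2 fold change of 3.12 ± 0.24 (SE), or 8.7-fold, with an adjusted p of 6.77e-06. In DEX-treated BMMCs, DNP raised it by 2.12 ± 0.23, or 4.35-fold (adjusted p = 0.00014). DEX raised Hdc by 2.22 ± 0.23, or 4.65-fold, in IgE-sensitized BMMCs (adjusted p = 0.000104) and by 1.21 ± 0.22, or 2.32-fold, in activated BMMCs (adjusted p = 0.00519). These comparisons share samples and are not independent of each other. In bulk samples a change in RNA per cell and a change in the share of cells that hold the RNA cannot be told apart. The summed basophil markers ranged from 24.7 to 88.2 CPM in IgE, from 20 to 85 CPM in IgE DEX, from 40.6 to 83.3 CPM in IgE DNP and from 22.4 to 122 CPM in IgE DNP DEX samples, with the sets mixed. Within the sets, Mcpt8 was higher with DNP in 4 of 4 pairs of IgE-sensitized BMMCs, by 0.34 ± 0.65 (adjusted p = 0.829), or 0.44 ± 0.27 with the replicate block (adjusted p = 0.221). The other basophil markers differed from this. Prss34 went from 42 to 36.6 CPM (PEP+/+) and from 18.8 to 17.5 CPM (PEP-/-) in the numbered set. In the lettered set it went from 10.2 to 14 CPM and from 20 to 23 CPM. Itga2, at no more than 12 reads per sample, was lower with DNP in each pair. The part of basophils in the rise of Hdc was not tested.

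Within a genotype, Hdc rose with DNP by 2.98 ± 0.34 in PEP+/+ BMMCs (adjusted p = 0.000342) and by 3.27 ± 0.34 in PEP-/- BMMCs (adjusted p = 0.000174). It rose with DEX in IgE-sensitized BMMCs by 2.02 ± 0.32 in PEP+/+ (adjusted p = 0.00514) and by 2.41 ± 0.33 in PEP-/- (adjusted p = 0.0018). Without the PEP+/+ IgE replicate 2, no gene of the group was called for DEX in IgE-sensitized PEP+/+ BMMCs. Changes with DEX in activated BMMCs were 1.29 ± 0.32 in PEP+/+ (adjusted p = 0.0534, and 0.00212 with the replicate block) and 1.14 ± 0.32 in PEP-/- (adjusted p = 0.0866, and 0.00508 with the block). After DEX, DNP raised Hdc by 2.24 ± 0.33 in PEP+/+ (adjusted p = 0.003) and by 2.00 ± 0.32 in PEP-/- (adjusted p = 0.00543). Without the PEP-/- IgE DEX replicate 2 the latter was no longer called. The responses of the genotypes differed by 0.29 ± 0.44 for DNP and by -0.15 ± 0.44 for DEX in activated BMMCs, each with an adjusted p of 1. No other gene of the group was called within a genotype by edgeR without the block. DESeq2 also called Maob for DEX in IgE-sensitized PEP+/+ BMMCs, and edgeR without the filter on low counts called 3 and 4 genes for DEX in IgE-sensitized PEP+/+ and PEP-/- BMMCs and 4 in activated BMMCs of each genotype. Shares of all genes in those 2 fits are not given here. Those that follow are from edgeR with the filter and without the block. The shares of all tested genes called within PEP+/+ and PEP-/- BMMCs were 5.90% and 7.22% for DNP in IgE-sensitized, 3.18% and 3.34% for DEX in IgE-sensitized, 3.03% and 3.28% for DEX in activated and 3.84% and 3.98% for DNP in DEX-treated BMMCs. With the block, 2 and 4 of the 7 genes were called for DNP in IgE-sensitized PEP+/+ and PEP-/- BMMCs (against 21.1% and 26.2% of all genes), 4 and 4 for DEX in IgE-sensitized (15.6% and 14.7%), 5 and 6 for DEX in activated (18.9% and 18.1%) and 3 and 3 for DNP in DEX-treated BMMCs (22.3% and 19.7%).

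The level after both treatments lay between the level that adding the separate increments gives and the level that multiplying the separate folds gives. In the numbered PEP+/+ samples it was 1796 CPM, against 1081 CPM by addition and 3125 CPM by multiplication. In the lettered PEP+/+ samples it was 1429 CPM, against 752 and 2215 CPM. For PEP-/- the numbered samples gave 1662 CPM against 1066 and 4251 CPM, and the lettered samples 1729 CPM against 1164 and 3876 CPM. All 4 sample sets thus lay above the sum, by 1.49 to 1.9 times, and below the product, at 39.1% to 64.5% of it. The deviation from the product is the DNP by DEX interaction, which was -1.0 ± 0.31 on the log2 scale and did not pass the test (unadjusted p = 0.00806, adjusted p = 0.697). With the replicate block it was -0.99 ± 0.24 (adjusted p = 0.0617), in the numbered set alone -1.07 and in the lettered set alone -0.86. The interaction was called for 0 of the 7 tested genes of the group, against 0.331% of all tested genes (1.57% with the block), with 1 (Hdc) at an unadjusted p under 0.05 and 0 called by DESeq2.

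**Figure D2:**
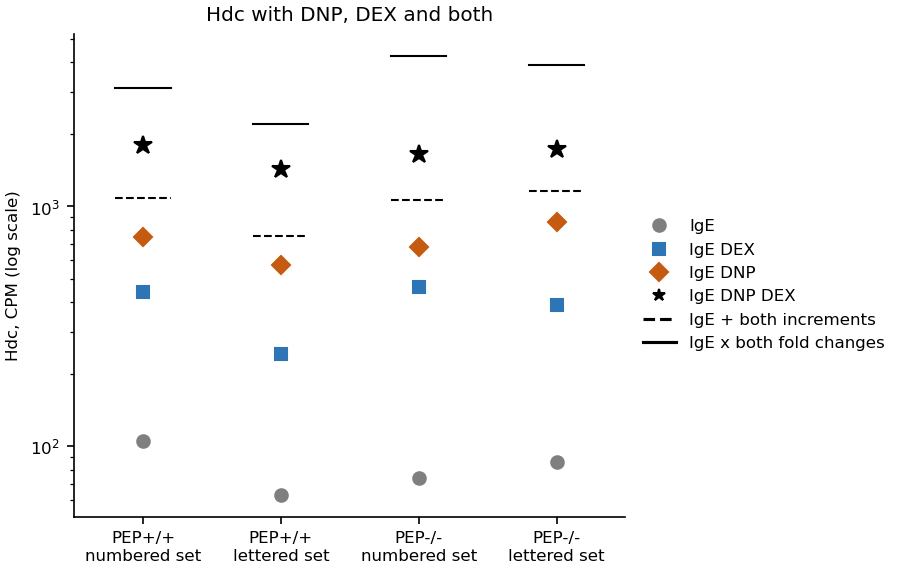
Hdc level in CPM on a log axis for each genotype and set, with 1 sample per symbol. Stars (IgE DNP DEX) lie above the dashed line, the IgE level plus both increments, by 1.49 to 1.9 times and below the solid line, the IgE level times both fold changes.

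Tph1, the rate-limiting enzyme of serotonin synthesis, was abundant in every sample and changed little with treatment. After IgE it was at 3710 and 3134 CPM in the numbered and lettered PEP+/+ samples and at 2978 and 2648 CPM in the PEP-/- samples. After IgE DNP the values were 4931 and 4536 CPM in PEP+/+ and 3821 and 4234 CPM in PEP-/- BMMCs. After IgE DEX they were 5780 and 3772 CPM in PEP+/+ and 3517 and 2861 CPM in PEP-/- BMMCs. After IgE DNP DEX they were 5145 and 4821 CPM in PEP+/+ and 3666 and 3661 CPM in PEP-/- BMMCs. The 4 IgE DNP samples lay above the 4 IgE samples, and the PEP+/+ sample lay above the PEP-/- sample of the same set in each of the 8 pairs.

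The change of Tph1 with DNP in IgE-sensitized BMMCs was 0.49 ± 0.16 (adjusted p = 0.0551), and with the replicate block 0.50 ± 0.12, or 1.41-fold (adjusted p = 0.00486). DESeq2 called this change too, at 0.50 ± 0.16 (adjusted p = 0.00976). With DEX the change by edgeR without the block was 0.33 ± 0.16 in IgE-sensitized BMMCs (adjusted p = 0.287). In activated BMMCs it was -0.03 ± 0.16 (adjusted p = 0.947, 95% interval -0.38 to 0.32). In DEX-treated BMMCs the change with DNP was 0.13 ± 0.16 (adjusted p = 0.672). Between genotypes, the log2 difference of PEP-/- from PEP+/+ BMMCs in Tph1 was -0.39 ± 0.11 (adjusted p = 0.121), and with the block -0.38 ± 0.09, or 1.3-fold lower (adjusted p = 0.00849). The 8 pairs ranged from -0.72 to -0.10, and as they come from 2 sets they are not independent.

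Ddc, which makes serotonin from 5-hydroxytryptophan, was rare and lower in DEX-treated BMMCs. After IgE it was at 36 and 18 reads (2.64 and 1.56 CPM) in PEP+/+ and at 13 and 79 reads (1.18 and 4.06 CPM) in PEP-/- BMMCs. After IgE DNP it was at 29 and 18 reads (2.74 and 2.03 CPM) in PEP+/+ and at 26 and 96 reads (2.13 and 5.28 CPM) in PEP-/- BMMCs. After IgE DEX the values were 0.586 and 0.799 CPM in PEP+/+ and 0.778 and 0.712 CPM in PEP-/- BMMCs. After IgE DNP DEX they were 0.781 and 0.625 CPM in PEP+/+ and 0.547 and 1.62 CPM in PEP-/- BMMCs, with 6 to 19 reads in the 8 samples with DEX. With DEX all samples lay below those without DEX at the same DNP state. Ddc fell with DEX in activated BMMCs by 1.79 ± 0.50 on the log2 scale, or 3.45-fold (adjusted p = 0.0419). In IgE-sensitized BMMCs its change was -1.70 ± 0.49 (adjusted p = 0.0509) without the block and -1.70 ± 0.41 with it (adjusted p = 0.00595). DESeq2 called this change too (adjusted p = 0.0151), as did edgeR without the filter on low counts (adjusted p = 0.00456). When each sample was left out in turn, the log2 fold change in activated BMMCs ranged from -2.25 to -1.37. The call was kept without either PEP-/- IgE sample, without PEP-/- IgE DNP replicate 1 or without PEP-/- IgE DNP DEX replicate 2, and was lost without any other sample, with an adjusted p of up to 0.165 (without PEP-/- IgE DNP replicate 2).

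Slc18a2, the vesicular monoamine transporter, differed between the sets in every group, and in each set it was higher after DNP. Numbered PEP+/+ samples were at 1022 CPM with IgE alone, 793 CPM with IgE DEX, 2030 CPM with IgE DNP and 1252 CPM with IgE DNP DEX, and numbered PEP-/- samples at 1287, 915, 1919 and 1292 CPM in this order. Lettered PEP+/+ samples were at 2070, 1923, 3889 and 2774 CPM, and lettered PEP-/- samples at 2244, 1859, 4121 and 3033 CPM. Every lettered sample lay above its numbered partner, and treatments overlapped once the sets were mixed.

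Without the block no change of Slc18a2 with treatment was called among the filtered genes, with 0.86 ± 0.46 for DNP in IgE-sensitized BMMCs (adjusted p = 0.274) and 0.60 ± 0.46 for DNP in DEX-treated BMMCs (adjusted p = 0.464). With no filter on low counts the first of these was called, at 0.85 ± 0.21 (adjusted p = 0.00131). With the replicate block it rose with DNP by 0.84 ± 0.10, or 1.79-fold (adjusted p = 2.03e-05), in IgE-sensitized and by 0.60 ± 0.10, or 1.51-fold (adjusted p = 0.000493), in DEX-treated BMMCs. With the block it fell with DEX by 0.55 ± 0.10 in activated BMMCs (adjusted p = 0.00104) and by 0.31 ± 0.10 in IgE-sensitized BMMCs (adjusted p = 0.0395). Without the block the values for DEX were -0.52 ± 0.46 (adjusted p = 0.578) and -0.27 ± 0.46 (adjusted p = 0.878). Within each set taken alone, the change of Slc18a2 with DNP was 0.78 (numbered) and 0.87 (lettered). The 4 pairs of same-set samples ranged from 0.58 to 0.99 for DNP and from -0.70 to -0.44 for DEX in activated BMMCs.

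Slc6a4, the serotonin transporter, was rare and higher with DEX. After IgE it was at 2.57 and 1.47 CPM in PEP+/+ and at 3.46 and 1.90 CPM in PEP-/- BMMCs, and after IgE DNP at 2.18 and 0.788 CPM and at 2.54 and 2.53 CPM. After IgE DEX the values were 5.41 and 2.78 CPM in PEP+/+ and 11.7 and 5.59 CPM in PEP-/- BMMCs. After IgE DNP DEX they were 6.9 and 4.0 CPM in PEP+/+ and 10.0 and 6.19 CPM in PEP-/- BMMCs. All IgE DNP DEX samples lay above all IgE DNP samples, whereas IgE DEX and IgE samples overlapped. The counts behind these levels were 7 to 46 reads per sample without DEX and 53 to 226 reads with DEX.

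DEX raised Slc6a4 in activated BMMCs by 1.76 ± 0.42, or 3.38-fold (adjusted p = 0.0206). In IgE-sensitized BMMCs the change was 1.36 ± 0.41 (adjusted p = 0.0628) without the block and 1.34 ± 0.19, or 2.53-fold, with it (adjusted p = 0.000103). DESeq2 called this change too (adjusted p = 0.0145), as did edgeR without the filter on low counts (adjusted p = 0.00219). The call in activated BMMCs was lost without PEP+/+ IgE DNP DEX replicate 1, PEP-/- IgE DNP replicate 1, PEP-/- IgE DNP DEX replicate 1, PEP+/+ IgE DNP replicate 2 or PEP-/- IgE DNP replicate 2, with adjusted p between 0.0633 and 0.0695. With DNP it was not called, at -0.25 ± 0.42 in IgE-sensitized and 0.15 ± 0.39 in DEX-treated BMMCs (adjusted p = 0.797 and 0.865). Slc6a4 was higher in the PEP-/- sample of all 8 pairs, by 0.70 ± 0.29 (adjusted p = 0.292), and by 0.73 ± 0.14, or 1.66-fold, with the block (adjusted p = 0.00304). These 8 pairs come from 2 sets and are not independent. Platelets carry this transporter. Of their 4 markers, Ppbp was at 0 reads and Pf4 at no more than 3 reads per sample, Gp9 was at 0.808 to 2.42 CPM and Itga2b at 1939 to 3919 CPM. Itga2b was higher with DEX in 4 of 4 pairs of IgE-sensitized and of activated BMMCs, by 0.25 ± 0.28 in each (adjusted p = 0.777 and 0.687), and by 0.26 ± 0.10 and 0.27 ± 0.10 with the block (adjusted p = 0.0845 and 0.0615). The part of such cells in the change of Slc6a4 was not tested.

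Slc22a3, the low-affinity transporter, was read mostly in the numbered set and in BMMCs without DEX. In the numbered set it was at 61 and 49 reads after IgE and IgE DNP in PEP+/+ and at 60 and 65 reads in PEP-/- BMMCs. With DEX the numbered samples had 7 and 3 reads in PEP+/+ and 1 and 1 in PEP-/- BMMCs. In the lettered set the samples without DEX had 5, 2, 9 and 1 reads and those with DEX 0, 3, 1 and 0 reads. Summed over the numbered set, 12 reads with DEX stood against 235 without it, a ratio scaled to library size of 0.0439 (95% interval 0.0224 to 0.0781). In the lettered set 4 reads stood against 17, a ratio of 0.227 (0.0556 to 0.696), and these intervals cover counting error only. The fitted change with DEX in IgE-sensitized BMMCs was -4.38 ± 1.56 (adjusted p = 0.123), and under the replicate block it was -4.55 ± 0.61 (adjusted p = 5.82e-05). For activated BMMCs it was -4.42 ± 1.67 (adjusted p = 0.128), and under the replicate block it was -4.08 ± 0.69 (adjusted p = 0.000432). DESeq2 called both changes, with adjusted p of 0.0156 and 0.0192, as did edgeR without the filter on low counts. Leaving out 1 sample moved the first value between -6.64 (without PEP+/+ IgE DEX replicate 1) and -3.06 (without PEP-/- IgE replicate 1) and the second between -5.67 (without PEP-/- IgE DNP DEX replicate 1) and -1.72 (without PEP-/- IgE DNP replicate 1). In activated BMMCs of the lettered set alone, where 3 reads without DEX stood against 3 with it, the value was -0.10.

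The degrading enzymes differed widely in level. Hnmt, which inactivates histamine by methylation, had 0 to 4 reads per sample and 0 reads in 8 of the 16 samples. In all it had 6 reads in IgE, 9 in IgE DEX, 1 in IgE DNP and 0 in IgE DNP DEX samples. Differences in Hnmt were not detectable at this depth.

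Maob fell with DEX and was higher with DNP. After IgE it was at 579 and 374 CPM in the numbered and lettered PEP+/+ samples and at 562 and 372 CPM in the PEP-/- samples. After IgE DNP the values were 759 and 458 CPM in PEP+/+ and 831 and 559 CPM in PEP-/- BMMCs. After IgE DEX they were 200 and 140 CPM in PEP+/+ and 245 and 157 CPM in PEP-/- BMMCs, and after IgE DNP DEX 325 and 245 CPM and 412 and 238 CPM. No sample with DEX reached a sample without DEX at the same DNP state.

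For Maob the fall with DEX was 1.35 ± 0.28 on the log2 scale in IgE-sensitized BMMCs, or 2.55-fold (adjusted p = 0.0104). In activated BMMCs it fell by 1.10 ± 0.28, or 2.14-fold (adjusted p = 0.0289). The first call was lost without the lettered IgE DEX sample of either genotype, PEP+/+ (adjusted p = 0.0546) or PEP-/- (adjusted p = 0.053). The second was lost without PEP+/+ IgE DNP replicate 1, PEP+/+ IgE DNP DEX replicate 1, PEP-/- IgE DNP replicate 1, PEP+/+ IgE DNP DEX replicate 2 or PEP-/- IgE DNP DEX replicate 2, with adjusted p from 0.063 to 0.112. In all 4 pairs Maob was higher with DNP, by 0.46 ± 0.28 in IgE-sensitized (adjusted p = 0.332) and by 0.72 ± 0.28 in DEX-treated BMMCs (adjusted p = 0.123). The block gave 0.46 ± 0.09 (adjusted p = 0.000849) and 0.72 ± 0.09 (adjusted p = 2.74e-05). Without the filter on low counts, edgeR called the change with DNP in DEX-treated BMMCs, at 0.72 ± 0.21 (adjusted p = 0.00929).

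**Figure D3:**
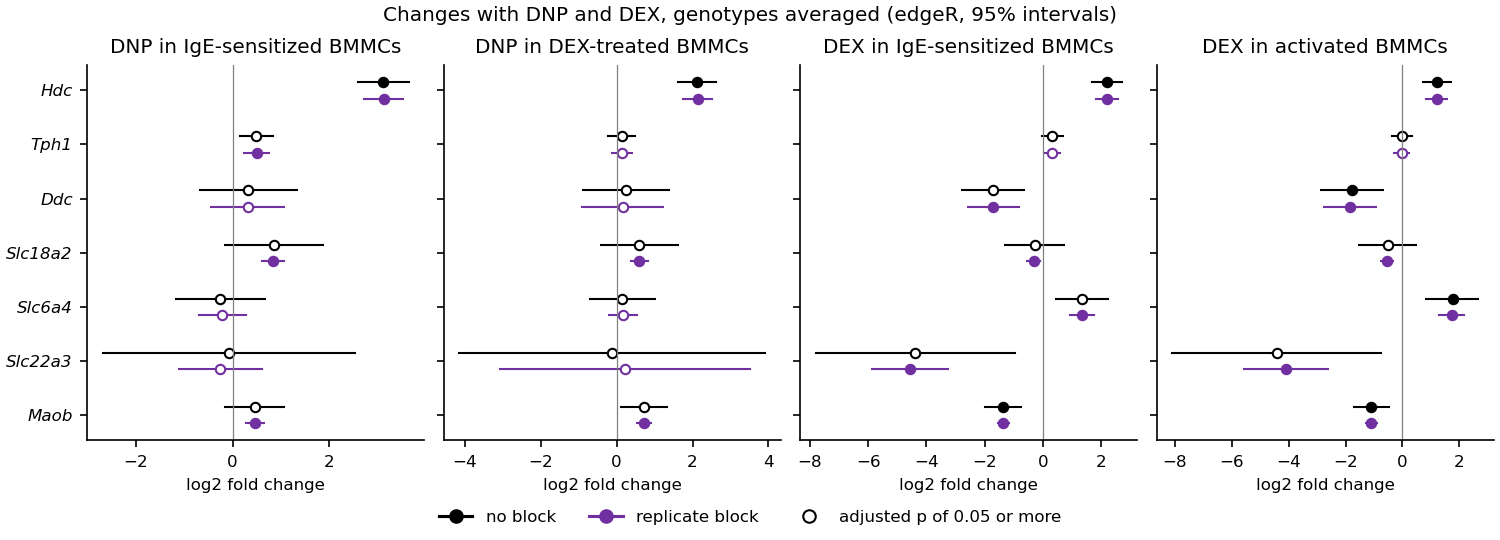
Log2 fold changes of the 7 tested genes with DNP and DEX, averaged over the genotypes, with 95% intervals, without (black) and with (purple) the replicate block. Filled points passed an adjusted p of 0.05. Hdc is to the right of 0 in all 4 panels, from 1.21 to 3.12 without the block, and Maob to the left of 0 in both DEX panels.

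Counted together, 1 of the 7 tested genes was called for DNP in IgE-sensitized BMMCs (Hdc), where 16.7% of all tested genes were called. For DNP in DEX-treated BMMCs it was again 1 (Hdc), against 12.6%. DEX changed 2 in IgE-sensitized BMMCs (Hdc higher, Maob lower), against 9.37%, and 4 in activated BMMCs (Hdc and Slc6a4 higher, Ddc and Maob lower), against 10.7%. With the block the counts were 4 for DNP in IgE-sensitized BMMCs (against 37.9% of all genes), 3 for DNP in DEX-treated BMMCs (37.6%), 6 for DEX in IgE-sensitized BMMCs (26.7%) and 6 for DEX in activated BMMCs (33.3%). Samples of the groups did not overlap for 2 genes with DNP in IgE-sensitized BMMCs (22.2% of all genes), 1 with DNP in DEX-treated BMMCs (19.4%), 3 with DEX in IgE-sensitized BMMCs (15.6%) and 4 with DEX in activated BMMCs (16.6%).

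Between genotypes, 0 of the 7 genes were called by edgeR without the block, against 1.59% of all tested genes, with 2 at an unadjusted p under 0.05 (Tph1 and Slc6a4). With the block 2 were called (Tph1 lower and Slc6a4 higher in PEP-/- BMMCs), against 17.4%, and with DESeq2 1 was called (Tph1), against 5.13%. The block takes out a shift between the sets, but not one that differs between the genotypes. Samples of a genotype within a set are not independent, so p-values between genotypes may be too small. Hdc differed by 0.14 ± 0.16 between genotypes (adjusted p = 0.804), but the sets disagreed, with -0.17 in the numbered and 0.51 in the lettered set. Ddc likewise differed by 0.42 ± 0.34 (adjusted p = 0.683), with -0.46 in the numbered and 1.13 in the lettered set. Slc18a2 differed by 0.09 ± 0.33 (adjusted p = 0.962, 95% interval -0.62 to 0.80) and Maob by 0.15 ± 0.20 (adjusted p = 0.841, interval -0.28 to 0.58).

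Several of the genes differed between the sets themselves. Slc18a2 was 2.1-fold higher in the lettered set, by 1.07 ± 0.07 on the log2 scale and in 8 of 8 groups (adjusted p = 7.4e-08). Slc22a3 was 13.7-fold lower in it (-3.77 ± 0.42, adjusted p = 3.98e-06), Slc6a4 1.74-fold lower (-0.80 ± 0.14, adjusted p = 0.000179) and Maob 1.53-fold lower (-0.61 ± 0.06, adjusted p = 2.07e-06). Hdc (-0.24 ± 0.12), Tph1 (-0.17 ± 0.09) and Ddc (0.51 ± 0.29) were not called. Thus 4 of 7 genes were called, near the 63.6% of all genes. Among cell type markers, Mcpt8 of basophils was 2.69-fold, Adgre1 of macrophages 3.18-fold and Ly6g of neutrophils 18.7-fold lower in the lettered set. Prss34 of basophils was 1.9-fold lower in it, though higher in the lettered sample in 3 of 8 groups, and Hba-a1 was 1.95-fold lower. Higher in the lettered set were Itgax of dendritic cells (3.11-fold), Itga2b (1.52-fold), Ccr3 (1.44-fold) and Gp9 (1.43-fold). Lyz2 of macrophages was not called (0.16 ± 0.22, adjusted p = 0.543). Mast cell markers differed as well, with Cma1 1.71-fold and Tpsb2 1.66-fold higher, and Ms4a2 1.78-fold, Kit 1.3-fold and Cpa3 1.23-fold lower. The part of other cell types in the differences was not tested.

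**Figure D4:**
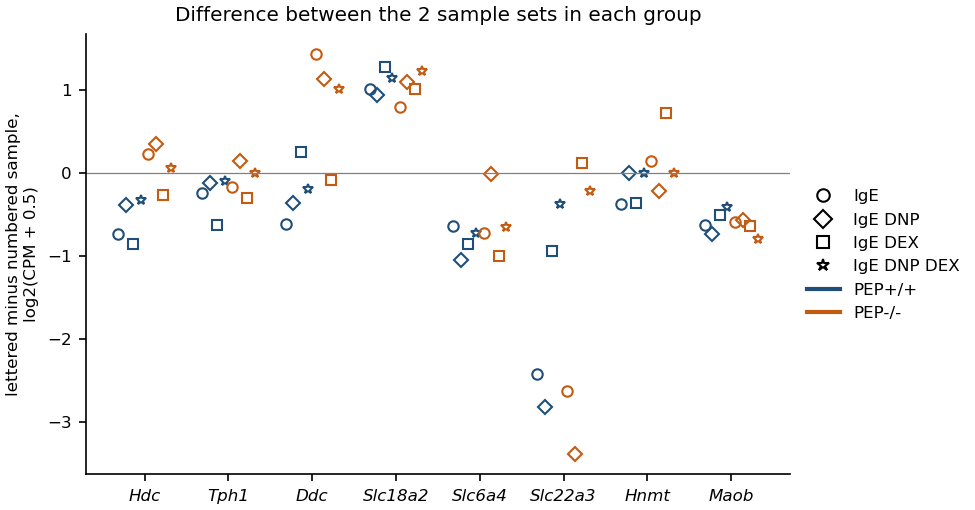
Lettered minus numbered sample, as a difference of log2(CPM + 0.5), in each of the 8 groups, with treatment as symbol and genotype as colour. Slc18a2 is above 0 and Maob below 0 in all groups, while Slc22a3 is lowest in the 4 groups without DEX.

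With DEX, 2 of the 17 tested markers were called without the block in IgE-sensitized BMMCs, against 9.37% of all tested genes. In activated BMMCs it was again 2, against 10.7%. With the block 3 were called in IgE-sensitized (26.7% of all genes) and 6 in activated BMMCs (33.3%). Hba-a1 of erythroid cells rose by 3.65 ± 0.73 in IgE-sensitized (adjusted p = 0.00852) and by 4.33 ± 0.74 in activated BMMCs (adjusted p = 0.00347), to summed erythroid levels of no more than 6.12 CPM. Ccr3, an eosinophil marker that basophils also carry, fell by 1.16 ± 0.27 (adjusted p = 0.021) and by 1.55 ± 0.28 (adjusted p = 0.00462). The 3 eosinophil markers summed to 10.4 to 22.1 CPM without DEX and 4.3 to 8.44 CPM with DEX. Nearly all of this sum was Ccr3 itself, with Epx at 0 and Prg2 at no more than 4 reads per sample. With the block Itgax of dendritic cells was called as well, lower in 4 of 4 pairs, by -1.49 ± 0.20 in IgE-sensitized (adjusted p = 7.31e-05) and -1.59 ± 0.21 in activated BMMCs (adjusted p = 5.84e-05), against -1.47 ± 0.74 and -1.54 ± 0.74 without it (adjusted p = 0.318 and 0.238). In activated BMMCs the block also called the mast cell markers Cpa3 (0.37 ± 0.12, adjusted p = 0.0302), Fcer1a (0.48 ± 0.13, adjusted p = 0.0113, called by DESeq2 too) and Mcpt4 (-0.89 ± 0.32, adjusted p = 0.0489). The part of other cell types in the changes of Ddc, Slc6a4, Slc22a3 and Maob with DEX was not tested.

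The wider pathway was read from a list of 54 other genes, also chosen with earlier results of these data known. Counts from it beside the shares of all genes are therefore descriptions. Of the 54 genes, 53 were found, 17 had 0 reads in every sample and 22 passed the filter. Neither Tph2 nor Th, which encode other amino acid hydroxylases, passed it, and Tph2 was at 0 reads. With DNP in IgE-sensitized BMMCs, 4 of the 22 rose, against 9.07% of all tested genes, and 0 fell, against 7.58%. Gch1, the first enzyme in the synthesis of tetrahydrobiopterin, the cofactor of Tph1, rose by 2.59 ± 0.30 (adjusted p = 0.000131), from 131 to 229 CPM after IgE to 764 to 1409 CPM after IgE DNP. Htr1b, a serotonin receptor, rose by 2.35 ± 0.58 (adjusted p = 0.0168), to no more than 1.64 CPM. Slc7a5 and Slc3a2, the chains of a transporter that carries tryptophan and histidine, rose by 1.31 ± 0.36 (adjusted p = 0.028) and 0.42 ± 0.12 (adjusted p = 0.0393). In DEX-treated BMMCs, DNP raised 3 (7.19% of all genes) and lowered 0 (5.42%). Raised were Htr1b (3.83 ± 0.56, adjusted p = 0.00115), Gch1 (2.42 ± 0.29, adjusted p = 0.000322) and Pdxk (0.53 ± 0.13, adjusted p = 0.0206).

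DEX raised 5 of the 22 (5.40% of all genes) and lowered 2 (3.98%) in IgE-sensitized BMMCs, and raised 5 (5.67%) and lowered 2 (4.99%) in activated BMMCs. Sult1a1, a sulfotransferase that acts on phenols and amines, rose by 8.49 ± 0.37 in IgE-sensitized BMMCs (adjusted p = 1.8e-07), from 0.294 to 1.39 CPM after IgE to 201 to 385 CPM after IgE DEX, and by 8.04 ± 0.36 in activated BMMCs (adjusted p = 2.04e-07). Pdxk, which makes pyridoxal phosphate, the cofactor of Hdc and Ddc, rose by 1.46 ± 0.13 (adjusted p = 3.32e-05) and by 2.12 ± 0.13 (adjusted p = 2.69e-06). Pdxk levels were 132 to 178 CPM in IgE, 384 to 489 CPM in IgE DEX and 571 to 659 CPM in IgE DNP DEX samples. Slc7a8, a further carrier of neutral amino acids, rose by 1.81 ± 0.16 (adjusted p = 3.05e-05) and 1.46 ± 0.16 (adjusted p = 0.00017), and Slc3a2 by 1.44 ± 0.13 (adjusted p = 2.64e-05) and 1.25 ± 0.12 (adjusted p = 8.73e-05).

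Slc16a10, a carrier of aromatic amino acids, fell with DEX by 0.73 ± 0.15 (adjusted p = 0.00971) in IgE-sensitized and by 0.58 ± 0.15 (adjusted p = 0.0325) in activated BMMCs. Hrh2, a histamine receptor, fell by 1.31 ± 0.36 (adjusted p = 0.0406) in IgE-sensitized BMMCs, and its change in activated BMMCs was -1.02 ± 0.36 (adjusted p = 0.106, and 0.0133 with the block). Slc7a5 fell by 1.25 ± 0.36 (adjusted p = 0.0473) in activated BMMCs, against -0.95 ± 0.36 (adjusted p = 0.151, and 0.000102 with the block) in IgE-sensitized BMMCs. The median change of the 22 genes was 0.07 for DNP and 0.07 for DEX in IgE-sensitized BMMCs and 0.19 for DEX in activated BMMCs, against medians of all tested genes within 0.01 of 0. With the block the counts called were 5 for DNP (against 37.9% of all genes) and 10 for DEX (26.7%) in IgE-sensitized BMMCs, 12 for DEX in activated BMMCs (33.3%) and 6 for DNP in DEX-treated BMMCs (37.6%). Between genotypes none of the 22 was called by edgeR without the block or by DESeq2, with 3 and 5 at an unadjusted p under 0.05. The block called 5, among them Hrh4, Slc7a5 and Sult1a1, against 17.4% of all genes.

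**Figure D5:**
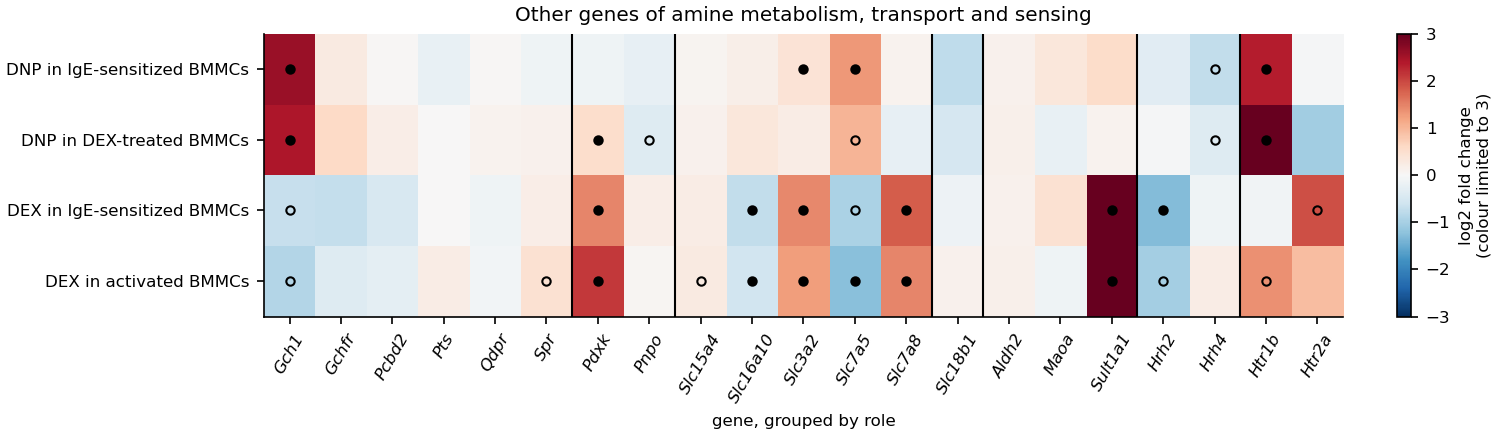
Log2 fold changes of tested pathway genes, averaged over the genotypes, with genes grouped by role along the horizontal axis and 1 comparison per row. Filled points passed an adjusted p of 0.05 without the block and open points passed it with the replicate block alone. Sult1a1 is beyond the colour limit of 3 in both DEX rows, and Gch1 and Htr1b are raised in both DNP rows.

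Likeness of pattern was measured as Pearson's r of log2(CPM + 0.5) over the 8 group means, among 11769 genes with a mean over 1 CPM. All these means share the same pairs of sets, and the values are descriptions. Most like Hdc were Baiap2 (r = 0.997), Plpbp (0.992) and Amigo2 (0.992), and Baiap2 was at 31.4, 76.9, 105 and 171 CPM with IgE, IgE DEX, IgE DNP and IgE DNP DEX. Most like Tph1 were Fam57a (0.952), Txndc11 (0.949) and Mtch2 (0.948). For Slc18a2 they were Gpr132 (0.994), Mex3b (0.990) and Spred1 (0.989), and for Maob they were Optn (0.995), Spn (0.994) and Ifitm2 (0.994). Among the rare genes, Ddc was most like Gbp8 (0.990), Nedd4l (0.989) and Gss (0.989), Slc6a4 most like Nsrp1, Trav4-4-dv10 and Tmem154 (0.988 each), and Slc22a3 most like Tmem106c (0.993), Rab1b (0.990) and Vopp1 (0.988). Within the group itself, r was highest between Ddc and Maob (0.94) and lowest between Slc6a4 and Slc22a3 (-0.91). Hdc was at 0.62 with Tph1 and at -0.13 with Maob.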

How the data were processed

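RNA of 16 BMMC samples, 2 for each of 8 groups, was sequenced from stranded mRNA libraries. Per the labels and the methods of the study, reads were aligned with TopHat2 to GRCm38 (Ensembl annotation) and counted on genes with HTSeq. The authors deposited these raw counts as whole numbers without normalization. Reads that aligned to several places (21.5% to 37.8% of the records) were not counted on a gene. Rows that name no gene were left out.

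Identifiers were matched to GENCODE M21 (GRCm38), where 37693 of 39179 identifiers (96.21%) were found. Counts were scaled by TMM to CPM. The quasi-likelihood test of edgeR 4.0.16 (R 4.3.3) was used, with 1 mean per group, all 16 samples and 8 residual degrees of freedom. The 13305 genes that passed filterByExpr (minimum count 10) were tested together, and an adjusted p-value (Benjamini-Hochberg) under 0.05 was called a change. Total counts were 8612531 to 22143526 per sample (median 12814043.5), and no molecular identifiers were used. Intervals of read ratios come from summed reads and cover counting error only, not the spread between samples. Those of fold changes come from the fit.

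The numbered and lettered samples of the labels were taken as replicates 1 and 2. Deviations of same-set samples from their group means correlated over 0.1 in all 28 pairs of groups (0.453 to 0.799, median 0.718), so the sets were taken to pair the samples and the replicate block is given beside results that it changes. Alternatives were the replicate block, DESeq2 1.42.0, DESeq2's size factors, no filter on low counts, only the groups compared and leaving out each sample. Fits within each set, and the test between the sets, were added after seeing the data. Within each set a group has 1 sample, so only the fold changes of those fits are given.

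Named are the 8 genes, pathway genes called in a genotype-averaged comparison, Ptpn22, and for each of the 8 genes over 1 CPM the 3 genes most like it. Markers and set differences outside this rule were named after their values were seen. The 8 genes and the lists were chosen with earlier results of these data known. Values of some genes in the lists are not reported here.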

Additional observations from a re-analysis of the deposited data

Results flagged for a closer look

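For Tph1 with DEX in activated BMMCs, every same-set pair of samples was higher with DEX in PEP+/+ and lower in PEP-/- BMMCs. Neither value passed the test, at 0.07 ± 0.22 (adjusted p = 0.937) and -0.14 ± 0.22 (adjusted p = 0.926). The difference between these responses was tested in edgeR as an interaction and was -0.21 ± 0.32 (adjusted p = 1), or -0.22 ± 0.24 with the replicate block (adjusted p = 0.999).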

How the results depend on the processing

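DESeq2's size factors changed no call. With DESeq2, 2 genes were called for DNP in IgE-sensitized BMMCs, 5 for DEX in IgE-sensitized BMMCs, 5 for DEX in activated BMMCs and 1 between genotypes. Within genotypes it called 2 for DEX in IgE-sensitized PEP+/+ BMMCs, and 1 each for DEX in activated PEP+/+ and PEP-/- BMMCs. Without a filter on low counts the numbers were 2 for DNP in IgE-sensitized and 2 for DNP in DEX-treated BMMCs, 5 for DEX in IgE-sensitized BMMCs (3 in PEP+/+ and 4 in PEP-/- alone) and 4 for DEX in activated BMMCs of each genotype alone. With the replicate block they were 4 for DNP in IgE-sensitized, 3 for DNP in DEX-treated, 6 for DEX in IgE-sensitized, 6 for DEX in activated BMMCs and 2 between genotypes. Within PEP+/+ BMMCs the block gave 2 for DNP, 4 for DEX in IgE-sensitized, 5 for DEX in activated and 3 for DNP in DEX-treated BMMCs, and within PEP-/- BMMCs 4, 4, 6 and 3. With only the groups compared, 2 genes were called for DEX in activated BMMCs (Ddc and Maob lost), 0 for DEX in IgE-sensitized PEP+/+ and 0 for DNP in DEX-treated PEP-/- BMMCs. For DESeq2 only the share of all genes between genotypes, 5.13%, is given. For the fits without the filter, with only the groups compared and with 1 sample left out, no share is given. These counts therefore do not show that more of these genes changed than of all genes. Numbers of calls within 1 set are not given, because each group then has 1 sample.

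Leaving out 1 sample gave 1 to 2 genes for DNP and 1 to 3 for DEX in IgE-sensitized BMMCs, 1 to 4 for DEX in activated BMMCs, and 0 to 1 each for DEX in IgE-sensitized PEP+/+, DEX in activated PEP+/+ and DNP in DEX-treated PEP-/- BMMCs.

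Directions turned only for values that had not passed the test. In the numbered set alone these were Slc22a3 with DNP (0.01), Tph1 (-0.06) and Ddc (-0.10) with DNP in DEX-treated BMMCs, and Hdc (-0.17) and Ddc (-0.46) between genotypes. In the lettered set alone they were Slc6a4 with DNP (0.03), Slc22a3 with DNP in DEX-treated BMMCs (1.68) and the interaction of Slc22a3 (3.62). The replicate block turned Slc22a3 with DNP in DEX-treated BMMCs (0.22) and its interaction (0.47), and beyond the calls given with each gene it changed no other call in the genotype-averaged comparisons. Leaving out 1 sample gave ranges across 0 for DNP in IgE-sensitized BMMCs in Ddc (-0.08 to 0.91), Slc6a4 (-0.72 to 0.01) and Slc22a3 (-2.77 to 1.24), and for DNP in DEX-treated BMMCs in Tph1 (-0.01 to 0.30), Ddc (-0.21 to 0.57), Slc6a4 (-0.07 to 0.47) and Slc22a3 (-1.36 to 2.15). It did so for DEX in Slc18a2 in IgE-sensitized (-0.65 to 0.03) and Tph1 in activated BMMCs (-0.05 to 0.02), between genotypes in Slc18a2 (-0.10 to 0.28) and Slc22a3 (-2.23 to 0.26), and for the interaction in Ddc (-0.67 to 0.35), Slc18a2 (-0.60 to 0.13) and Slc22a3 (-1.37 to 2.67). The causes of these changes were not tested. Depth limits Hnmt, Slc22a3 and Ddc, which had no more than 4, 65 and 96 reads in a sample.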
